A study of Mus musculus with 9 samples.

Results

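Broad H3K27ac domains that were shorter in oligodendrocytes (OL) than in the oligodendrocyte progenitor cells (OPC) they came from numbered 272. Peaks of all 4 H3K27ac lists on chromosomes 1 to 19 were pooled and joined into a domain wherever they lay within 12.5 kb of each other. A domain's covered length was the number of its bases under peaks of 1 list. The 272 domains had at least 4 kb of H3K27ac in both OPC lists and an OL length of at most 0.6 times the OPC length in each cell line. They were 17.3% of the 1571 broad OPC domains that met the length rule, out of 28896 joined domains in all. They were thus selected on H3K27ac covered length, which is given below as a description with no test.

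H3K27ac is an acetylated lysine of histone H3 found at active promoters and enhancers. Long, dense runs of it, often called broad or super-enhancer domains, tend to lie at genes that mark a cell's identity. SOX6 is a DNA-binding protein of the SoxD family that is known in the oligodendrocyte lineage for holding progenitors back from maturation, and SOX proteins bind sequences close to AACAAT or AACAAAG. OPCs divide in response to growth factors such as PDGF-A and FGF, and when they stop dividing they become OLs that make myelin.

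Both cell states came from 129O1 and EpiSC5, which are 2 epiblast stem cell lines of the mouse. The labels name the strains 129SvEv and 129S1/SvImJ as their sources without tying each to a line. Where a pair of values is given below, the first is from 129O1 and the second from EpiSC5. OLs were O1-positive cells taken on a magnetic sorter, and OPCs had been sorted for CD140a and NG2, expanded in medium with bFGF and PDGFA, and differentiated or harvested. H3K27ac was mapped by chromatin immunoprecipitation and sequencing (ChIP-seq) in OL and OPC of both lines, with 9 µg of antibody per sample. SOX6 was mapped in OL of EpiSC5 alone and in OPC of both lines, with 15 µg per sample. The lines are the replicates, with 1 library each per state and target, and an exact permutation test of 2 libraries against 2, or of 1 against 2, cannot give a p below 0.33. In bulk chromatin, fewer cells carrying a mark and less of the mark per cell cannot be told apart.

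The sequences below are shown because H3K27ac over them differed in how it ended. In the first 3 promoters, the 250 bases before the gene start were covered end to end in both OPC lists and not at all in either OL list. In the other 2, all 250 bases stayed covered in all 4 lists although the domain around them was shorter in OL. Sequences are from RefSeq on GRCm38.p6 (mm10) and are given 5′ to 3′ on the gene's strand. Capitals mark a match to AACAAT or AACAAAG, searched on both strands.
Pdgfra promoter (chr5:75152001-75152250, plus strand): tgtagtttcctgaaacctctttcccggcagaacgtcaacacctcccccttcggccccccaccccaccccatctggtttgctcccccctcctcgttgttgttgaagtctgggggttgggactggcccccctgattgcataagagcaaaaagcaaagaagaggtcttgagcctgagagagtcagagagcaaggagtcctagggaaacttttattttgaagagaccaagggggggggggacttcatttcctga
Ptn promoter (chr6:36810180-36810429, minus strand): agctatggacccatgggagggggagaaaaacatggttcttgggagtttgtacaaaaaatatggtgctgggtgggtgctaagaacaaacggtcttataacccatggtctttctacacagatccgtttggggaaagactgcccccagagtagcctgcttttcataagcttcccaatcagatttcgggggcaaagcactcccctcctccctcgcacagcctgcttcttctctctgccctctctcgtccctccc
Mest promoter (chr6:30737800-30738049, plus strand): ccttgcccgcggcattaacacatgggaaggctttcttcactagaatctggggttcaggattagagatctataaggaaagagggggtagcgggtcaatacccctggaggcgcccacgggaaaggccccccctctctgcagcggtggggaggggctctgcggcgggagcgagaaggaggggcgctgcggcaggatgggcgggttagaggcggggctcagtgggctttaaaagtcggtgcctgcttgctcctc
Dusp6 promoter (chr10:99262981-99263230, plus strand): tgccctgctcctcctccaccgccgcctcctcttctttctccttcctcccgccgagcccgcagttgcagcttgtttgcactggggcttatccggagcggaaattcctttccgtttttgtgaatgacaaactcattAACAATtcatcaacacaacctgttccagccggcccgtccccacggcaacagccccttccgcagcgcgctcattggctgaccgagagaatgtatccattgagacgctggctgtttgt
Spred1 promoter (chr2:117120821-117121070, plus strand): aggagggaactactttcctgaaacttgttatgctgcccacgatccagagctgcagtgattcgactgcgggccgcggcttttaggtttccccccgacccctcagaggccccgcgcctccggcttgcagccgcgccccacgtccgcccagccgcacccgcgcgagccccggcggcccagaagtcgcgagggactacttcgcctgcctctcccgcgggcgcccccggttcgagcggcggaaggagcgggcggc

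One of these 5 promoters, that of Dusp6, held a match, an AACAAT whose first base lay at -116 from the gene start. A SOX6 peak overlapped this stretch in both OPC lists and not in the OL list. The Spred1 promoter held no match and was overlapped by SOX6 in all 3 lists, and that of Ptn by SOX6 in OPC of 129O1 alone. Of the 229 promoters at starts inside shrinking domains 27 held either motif (11.8%), against 8.03% of 2479 at starts in all broad OPC domains and 11.7% of all 20085 promoters of protein-coding genes. Such a match is a description of letters and not a binding site.

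Shrinking domains also lay over microRNA genes, and 3 mature microRNAs are shown because their hairpins were fully covered by H3K27ac in both OPC lists and not at all in either OL list, and the first pair shares a seed. Capitals mark the seed, bases 2 to 8.
miR-15b-5p (chr3:69009775-69009796, plus strand): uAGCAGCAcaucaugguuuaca
miR-16-5p (chr3:69009918-69009939, plus strand): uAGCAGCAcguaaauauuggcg
miR-148b-3p (chr15:103285185-103285206, plus strand): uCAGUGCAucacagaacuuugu

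The first pair comes from the neighbouring hairpins Mir15b and Mir16-2 in the domain over Smc4, a condensin subunit, and Ift80. That domain had 2.62 kb of H3K27ac in OL of 129O1 and 2.63 kb in OL of EpiSC5, while OPC had 9.22 and 7.54 kb in these lines. The microRNAs of this seed family are known for repressing cell-cycle genes. Mir148b lies in the domain over Copz1, which had 4.399 and 2.24 kb in OL of 129O1 and EpiSC5, and OPC had 9.35 and 10.0 kb. By the gene annotation Mir143, Mir145a and Mir6948 also lay in shrinking domains, but they had no listed hairpin. The hairpins listed in shrinking domains numbered 10. Those of Mir23a, Mir27a, Mir24-2, Mir3074-2 and Mir686 had no H3K27ac in any list, that of Mir8101 was covered in all 4, and that of Mir1895 in OL of 129O1 and both OPC lists. The choice of these microRNAs was made with their values known.

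Before the domains are described, the labels and lists were checked. The covered length of all 5 OPC marker genes was shorter in OL than in OPC in both lines, and that of all 10 OL marker genes was longer. Of other cell types, 4 of 10 astrocyte markers were longer in OL in both lines and 2 were shorter, and their summed length was 62.9 and 35.1 kb in OL of 129O1 and EpiSC5, and OPC had 43.7 and 35.2 kb. Neuron markers summed to 41.2 and 28.1 kb in OL and 56.7 and 45.4 kb in OPC, and Map2, itself over 3 shrinking domains, gave most of it in OPC, while Stmn2, Nefl and Slc17a6 had no peak in any list. Pluripotency markers summed to 8.08 and 2.47 kb in OL and 10.9 and 6.45 kb in OPC, with 5 of 8 shorter in OL in both lines. The microglia markers Cx3cr1, Itgam, Trem2, C1qa and Spi1 and the neural crest markers Ngfr, Tfap2a and Foxd3 had no peak. All 9 microglia markers summed to 8.16 and 5.16 kb in OL and 5.79 and 5.13 kb in OPC. Csf1r was the 1 longer in OL in both lines, and 2 were shorter. All 8 Schwann cell and neural crest markers summed to 32.5 and 33.1 kb in OL and 22.3 and 17.1 kb in OPC. Mitf was the 1 longer in OL in both lines, and 4 were shorter. The part of these cells in the results was not tested. The H3K27ac lists had 33058 and 30443 peaks in OL of 129O1 and EpiSC5 and 29975 and 26967 in OPC, covering 50.0 and 42.8 Mb in OL and 47.3 and 36.2 Mb in OPC, so OL lists were longer in total. The authors' median −log10 q per peak was lower in OL, at 10.8 and 9.50, than in OPC, at 17.6 and 12.8, and read depth per library is unknown. The part of peak score or depth in the lengths below was not tested.

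The median shrinking domain had 2.89 kb of H3K27ac in OL of 129O1 and 1.77 kb in OL of EpiSC5, against 7.16 kb in OPC of 129O1 and 5.62 kb in OPC of EpiSC5. Summed over all 272, OL held 41.2% of the OPC length in 129O1 and 30.9% in EpiSC5. Over the other 1299 broad domains OL held 116% and 115% of the OPC length. The median ratio of OL to OPC was 0.43 in 129O1 and 0.30 in EpiSC5. EpiSC5 had the lower ratio in 194 domains (71.3%), against 56.8% of all broad OPC domains. In 9 domains there was no H3K27ac in either OL list. In all, 12 had none in OL of 129O1 and 30 none in OL of EpiSC5, and 40 had a ratio of at most 0.25 in both lines. The domains spanned 4.41 to 114.5 kb, with a median of 19.3 kb, and held a median of 2 and 1 H3K27ac peaks in OL of 129O1 and EpiSC5 and of 3 in each OPC list.

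**Figure D1:**
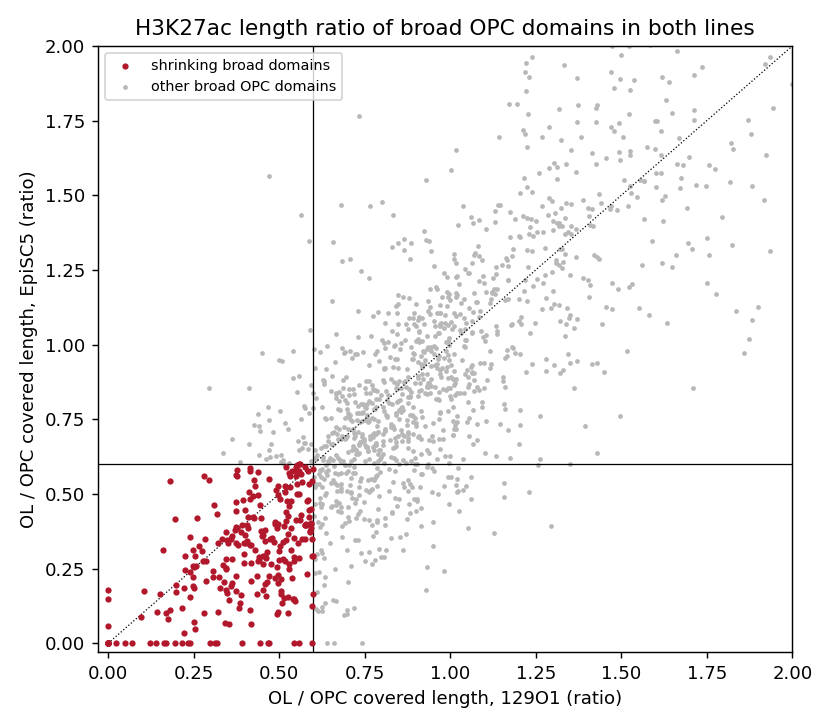
Each point is 1 broad OPC domain, placed by the OL to OPC ratio of H3K27ac covered length in 129O1 (x axis) and EpiSC5 (y axis), with the 0.6 limit as solid lines and equal ratios as a dotted line. The 272 shrinking domains (red) fill the lower left by the rule and lie more often below the dotted line than above it, and 138 of the other broad domains (grey) lie beyond a ratio of 2 and are not drawn.

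The limit cut through a continuous range of ratios, as the plot of both lines' ratios shows. Just inside it were the domains over Gdf15 and Pgpep1, over Lpin1 and over Pdzd2, with larger ratios of 0.60 each. Just outside were those over Mib1, over Tiparp and over a Vasp and Fosb cluster, also at 0.60 when rounded. The ratio limit in 1 line was then read in the other, although the length rule had used the OPC lists of both. Of 326 broad domains at or under 0.6 in 129O1, 20.8% of all, 272 were also at or under 0.6 in EpiSC5 (83.4%, 95% Wilson interval 79.0 to 87.1%), against 16.9% of the 1245 not chosen in 129O1. Of 483 at or under 0.6 in EpiSC5, 30.7% of all, 56.3% were so in 129O1, against 4.96% of the 1088 not chosen. With the rule applied to 1 line alone the number of shrinking domains was 509 in EpiSC5 and 593 in 129O1. For these counts peaks were joined from that line's lists alone, and the length rule was asked of that line alone. The intervals here and below cover counting error only. The joining of peaks used all 4 lists except where the rule was applied to 1 line alone.

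The longest shrinking domains in OPC lay over genes of several kinds. The longest spanned Vezf1, a zinc-finger factor, and Cuedc1, and had 24.9 and 13.7 kb of H3K27ac in OL of 129O1 and EpiSC5, and OPC had 47.3 and 37.7 kb. A domain inside Xylt1, whose enzyme starts the glycosaminoglycan chains of proteoglycans, had 16.1 and 14.7 kb in OL and 31.1 and 24.9 kb in OPC. That over Myt1, a zinc-finger factor of neural progenitors and the oligodendrocyte lineage, had 10.6 and 7.66 kb in OL and 26.9 and 16.0 kb in OPC. In each of these 3, both OL values lay under both OPC values, an order that the rule itself favours. It did not hold in every shrinking domain. At chr17:9750352-9779837, nearest to Pabpc6, OL of 129O1 had 11.3 kb and OPC of EpiSC5 9.48 kb. The domain of Btg2, an antiproliferative gene, had 8.24 and 4.45 kb in OL and 17.9 and 15.6 kb in OPC. Fchsd2, Thumpd3 with Setd5, Elp6, Map2, Inka2 and Zeb1 completed the 12 longest with a cluster of histone genes and Ptn.

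A set of 4 shrinking domains lay over histone genes, which are used in S phase and were chosen for mention with their values known. The longest, on chromosome 13, holds 15 of them and had 19.8 and 14.3 kb in OL of 129O1 and EpiSC5, and OPC had 35.3 and 33.3 kb. Of 57 histone genes over a broad OPC domain, 25 lay over a shrinking one, against 10.9% of all genes, but 15 of the 25 sit in 1 domain. By domain it was 4 of 10, against 17.3% of all broad OPC domains. The 3 others held H4c12, H2ac15 and H2bc15, H1f5 with 3 neighbours, and H4c14, H3c13 and H2bc18. Histone genes have near-identical copies, so the placing of their reads is uncertain.

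Of the 30 OPC genes listed, 20 lay over a broad OPC domain and 7 of those over a shrinking one (35.0%), against 10.9% of all 2726 genes over a broad OPC domain. By domain the background was 17.3%. The number of broad domains per gene was not matched, and Pdgfra, Ptprz1, Pcdh15, Nfia and Xylt1 each lay over 2 shrinking domains. Pdgfra, the PDGF-A receptor through which OPCs are driven to divide, lay over a pair of them. The first, at chr5:75150920-75165947 over the gene start, had 1.77 and 1.16 kb in OL of 129O1 and EpiSC5, and OPC had 12.4 and 11.2 kb. The second, at chr5:75197398-75238872 from the gene's end outward, had 3.44 and 1.62 kb in OL while OPC had 10.2 and 6.14 kb. Ptn, pleiotrophin, and Ptprz1, the receptor phosphatase that binds it, each lay over shrinking domains, though Ptn is in no list used here. Ptn had 7.59 and 5.996 kb in OL and 30.4 and 19.3 kb in OPC. The larger Ptprz1 domain had 2.71 and 2.36 kb in OL and 10.5 and 9.12 kb in OPC.

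The OPC genes over shrinking domains also included Pcdh15, Nfia, C1ql1 and Xylt1. Pcdh15, a protocadherin, had 2.57 and 1.71 kb in OL of 129O1 and EpiSC5 and 8.38 and 7.71 kb in OPC in its longer domain. Nfia, a nuclear factor I gene of gliogenesis, had 4.43 and 2.79 kb in OL and 8.17 and 10.1 kb in OPC in the longer of its pair. Cspg4, which encodes NG2, was broad in OPC but outside the rule, with 22.1 and 18.1 kb in OL and 27.4 and 19.7 kb in OPC over its whole domain. Olig1, Olig2 and Sox10 were broad and not shrinking, and the Sox10 domain was longer in OL, at 19.4 and 19.7 kb, than in OPC, at 12.1 and 11.2 kb. Sox6 had 4 broad domains, none in the set, with ratios from 0.57 to 1.11. Egfr, Chrm3 and Sox5 had no broad domain.

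Of 19 MAPK feedback and receptor tyrosine kinase genes over a broad OPC domain, 6 lay over a shrinking one (31.6%). The background was 10.9% of all genes over a broad OPC domain and, by domain, 17.3% of all broad OPC domains. Many genes of this list are known to be switched on by growth factor signalling through ERK, and several encode its inhibitors. Spry4, an inhibitor of receptor tyrosine kinase signalling, had 1.49 kb in OL of 129O1 and none in OL of EpiSC5, against 8.89 and 6.91 kb in OPC. Dusp6, an ERK phosphatase, had 5.41 and 3.65 kb in OL and 9.27 and 7.62 kb in OPC. Spred1, an inhibitor of Ras signalling, had 3.77 and 3.74 kb in OL and 7.59 and 7.12 kb in OPC. OL of either line lay under OPC of either line in each of these inhibitors, an order that the rule itself favours. Etv5 had 3.02 and 1.07 kb in OL and 8.55 and 7.43 kb in OPC, and Etv1 had 2.24 and 2.61 kb in OL and 8.62 and 6.23 kb in OPC. Both encode ETS transcription factors. Ccnd1, cyclin D1, had 0.412 kb in OL of 129O1, none in OL of EpiSC5, and 8.37 and 6.17 kb in OPC. A domain over Fgf1, a growth factor, and Arhgap26 had 0.256 kb in OL of 129O1, none in OL of EpiSC5, and 10.9 and 5.58 kb in OPC. Erbb4, Fgfr1, Igf1r, Spry2, Etv4, Myc and 7 others of the list were broad and outside the set.

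**Figure D2:**
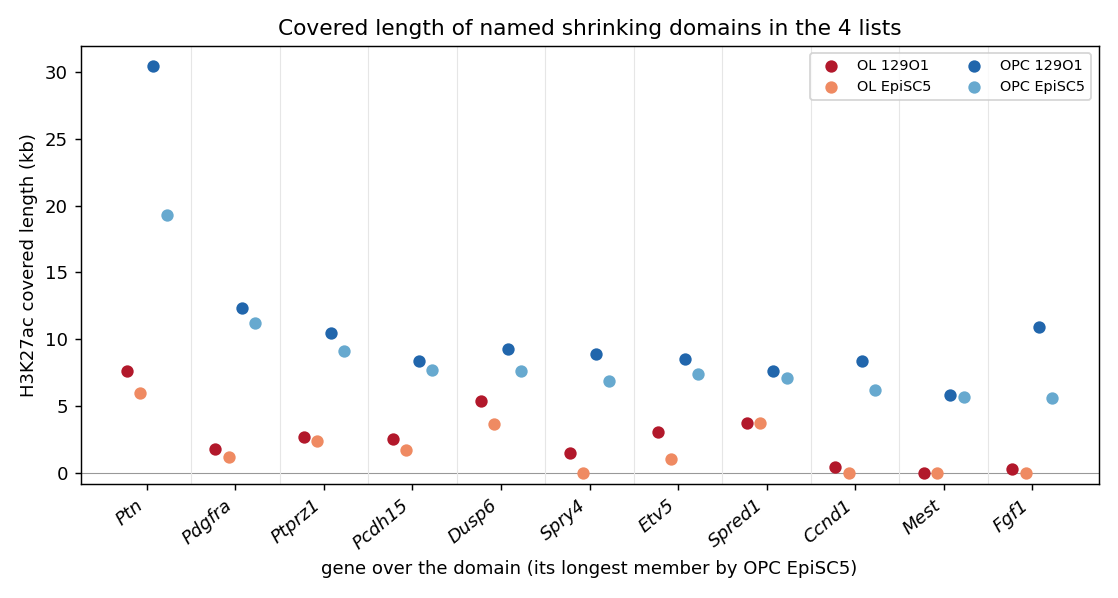
Points give the H3K27ac covered length in kb (y axis) of 1 shrinking domain per gene (x axis, the longest by OPC of EpiSC5 where a gene has several) in OL (reds) and OPC (blues) of both lines. In each of the 11 domains both OL points lie under both OPC points, an order that the rule itself favours, and Mest has none in OL.

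Other groups had fewer genes in the set, and their counts stand beside the 10.9% of all genes over broad OPC domains. By domain the background was 17.3%. Cdk4, the kinase partner of cyclin D1, and Cdkn1b, the cell-cycle inhibitor p27, joined Ccnd1 as 3 of 6 cell cycle genes over broad OPC domains. Bmp7, a ligand, and Bmpr1b, a receptor, were 2 of 4 genes of the BMP, TGF-beta and Id list, and Bmpr1b had 6.30 and 1.30 kb in OL of 129O1 and EpiSC5, and OPC had 13.6 and 8.26 kb. Chrna4, a nicotinic receptor subunit, and the A-type potassium channel genes Kcnd2 and Kcnd3 were 3 of 7 receptor and channel genes. Kcnd2 lay over 3 shrinking domains, one of which had no H3K27ac in either OL list and 4.41 and 4.12 kb in OPC. Dll3 was 1 of 10 Notch genes and Plxna2 1 of 12 adhesion and guidance genes, shares near the 10.9% of all genes. Of the genes in the Wnt, SOX, immature oligodendrocyte and myelin lists, 4, 8, 12 and 7 lay over broad OPC domains, and none of these over a shrinking one. The Wnt list is not complete, and Wnt7b, Wnt5a and Fzd9, which it does not hold and which were chosen with their values known, lay over shrinking domains. Npas3, a basic helix-loop-helix factor gene, lay over 4, more than any other gene. In all, 296 protein-coding genes overlapped a shrinking domain, 184 domains lay over 1 gene, 46 over several and 42 over none.

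Of the 9 domains with no H3K27ac in either OL list, 7 overlapped a gene. Mest, an imprinted gene of fetal growth, had 5.86 and 5.68 kb in the OPC lists of 129O1 and EpiSC5, and its start lay inside. The others lay in Pde3a, Col19a1, Ctnnd2, Kcnd2 and Akap6, over Aipl1 and Pimreg, and in gene-free sequence nearest to Agbl1 and Calb2. The one near Agbl1 was the longest, with 6.80 and 7.07 kb in OPC. Magi1 had no H3K27ac in OL of 129O1 and 0.251 kb in OL of EpiSC5, against 4.56 and 4.26 kb in OPC.

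More of the OPC length remained in OL near gene starts than away from them. Within 1 kb of a listed start OL held 65.4% of the OPC length of shrinking domains in 129O1 and 49.9% in EpiSC5, and farther away 37.1% and 27.2%. In 300 kept domains, whose OL length was at least 0.8 times that of OPC and OPC at least 0.8 times that of OL in each line, these shares were 91.3% and 87.4% near starts and 101.3% and 105% farther away. Shrinking domains contained a listed start in 128 of 272 cases (47.1%), kept domains in 72.3%, and 102 shrinking domains lay in a gene body without one. The highest-scoring OPC peak of a shrinking domain was met by an OL peak in 91.9% of cases in 129O1 and 75.4% in EpiSC5, and the other OPC peaks in 49.8% and 32.7%. The same order held in other broad domains, with 99.7% and 97.6% for the highest-scoring peak and 82.8% and 72.0% for the others. Listed starts were found for 82.4% of the genes over shrinking domains.

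At some genes, nevertheless, no listed OL peak of H3K27ac covered the start itself. Of 175 genes in shrinking domains whose start was covered in both OPC lists, 100 stayed covered in both OL lists, 42 in 1 and 33 in none (18.9%, 95% Wilson interval 13.8 to 25.3%). In other broad domains 64 of 1513 (4.23%) were covered in no OL list, and in kept domains 8 of 380 (2.11%). The groups were set by OL H3K27ac length, so this order is a description and not a separate result. With the rule applied to 1 line alone, a start counted as lost if that line's OPC list covered it and its OL list did not. By this looser count the share in shrinking domains was 42.1% in EpiSC5 and 22.4% in 129O1. The 33 held Pdgfra, Ptn, Mest and Pcdh15, the mitotic genes Cdc25b, Hmmr and Kif18b, Igfbp5, which encodes an insulin-like growth factor binding protein, Chrna4, and Nab2, a co-repressor of EGR factors. Dusp6, Spred1, Etv1, Etv5, Btg2, Myt1 and Cdkn1b stayed covered at the start in both OL lists, and Ptprz1, Cdk4, Dll3 and Bmpr1b in 1. Several of these genes were chosen for mention with their values known.

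**Figure D3:**
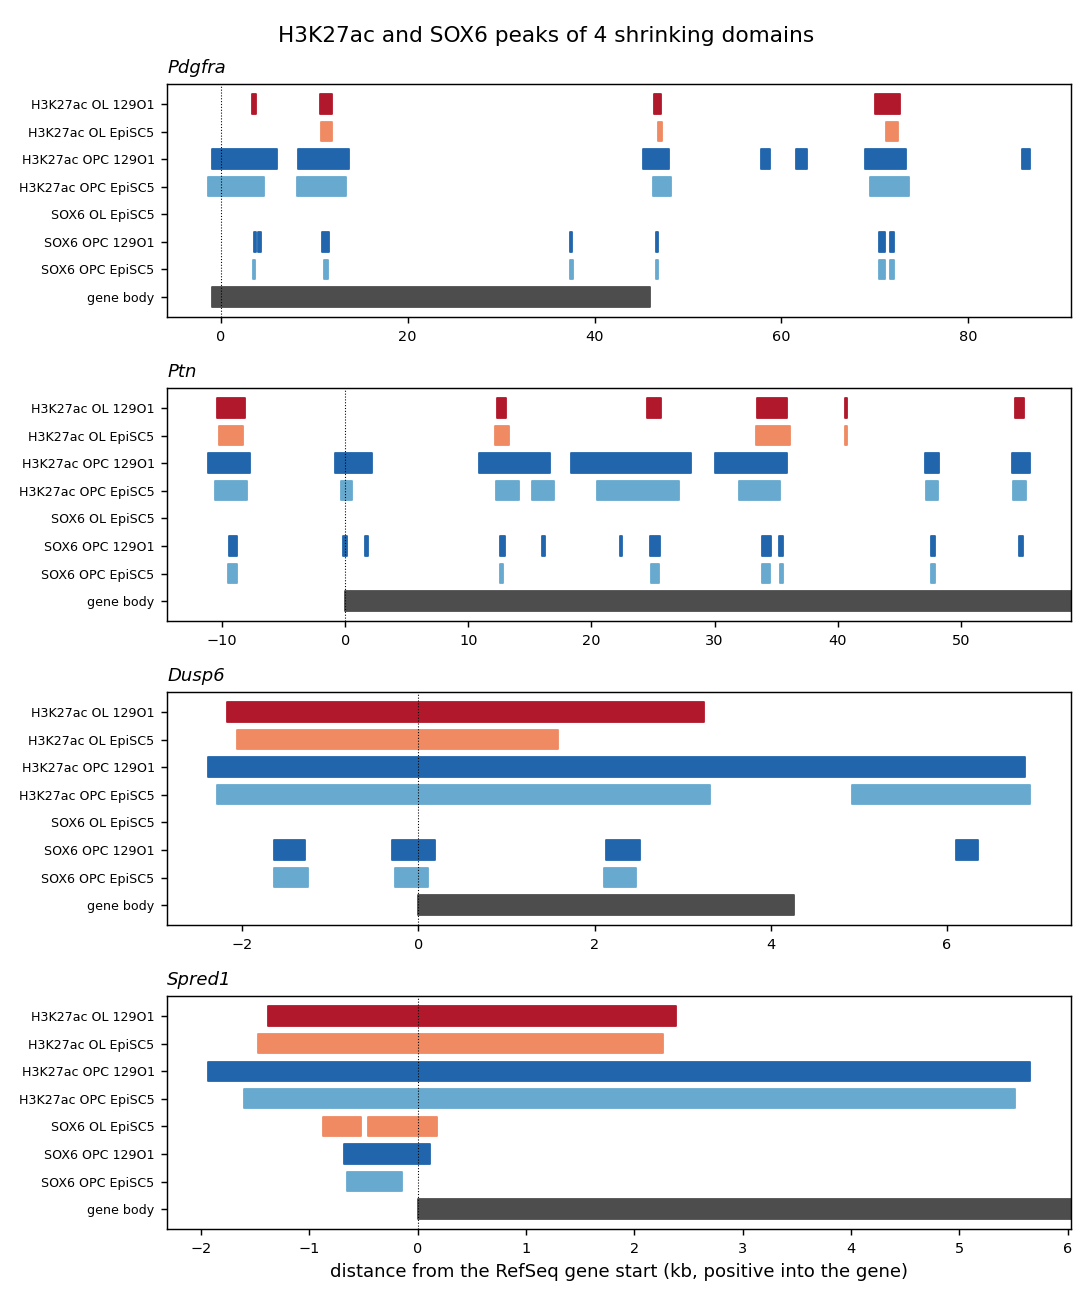
H3K27ac and SOX6 peaks of each list (rows, OL above OPC for each target) and the gene body are drawn against distance in kb from the RefSeq gene start (dotted line) for the shrinking domains of 4 genes. No OL H3K27ac peak lies over the start of Pdgfra or Ptn. OL peaks remain over the starts of Dusp6 and Spred1 with a shorter downstream end, and SOX6 peaks in OL appear at Spred1 alone.

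SOX6 took no part in choosing the domains, and with 1 OL list its differences below are given as counts with no test. A SOX6 peak lay in 31 of 272 shrinking domains in OL (11.4%), against 35.5% of all broad OPC domains. In both OPC lists SOX6 was found in 230 of them (84.6%), against 83.2% of all broad OPC domains, a share near the background. Of these 230, 203 had no SOX6 peak in OL (88.3%), against 62% of all broad OPC domains with SOX6 in both OPC lists. Kept domains had SOX6 in OL in 124 of 300 (41.3%) and in both OPC lists in 240 (80.0%). There were 18 shrinking domains with no SOX6 in any list, those of Ccnd1 and Fgf1 among them. The OL list held 3858 SOX6 peaks, and the OPC lists 22320 in 129O1 and 15166 in EpiSC5, so OL peaks were scarcer over the genome. With each list cut to its best 3858 peaks, 40.1% of shrinking domains had SOX6 in both OPC lists and 11.4% in OL. The cut left the OL list whole, so its background stayed at 35.5% of all broad OPC domains. The OPC share of all broad or kept domains was not computed at this cut. The 40.1% therefore has no background, and whether it is particular to shrinking domains was not tested.

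**Figure D4:**
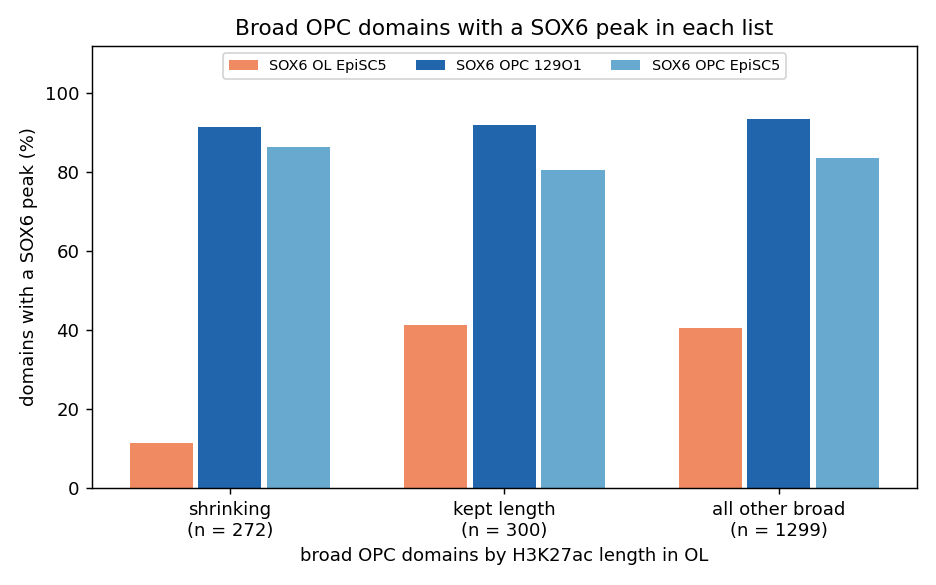
Bars give the percentage of domains with at least 1 SOX6 peak in the OL list and in each OPC list for shrinking, kept and all other broad OPC domains (kept ones included). The OL bar of shrinking domains is 11.4%, against 41.3% for kept and 40.6% for all other broad domains, while OPC bars lie between 80.7 and 93.5% in all 3 groups.

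The lower share in OL was seen at each domain width. At 4 to 6 kb in the smaller OPC list 8.07% of shrinking domains had SOX6 in OL, against 35.1% of other broad domains. At 6 to 9 kb the shares were 13.0% and 40.5%, and from 9 kb upward 23.5% and 59.3%. Peak by peak within EpiSC5, an OL SOX6 peak met 3.82% of the 497 OPC SOX6 peaks in shrinking domains (95% Wilson interval 2.46 to 5.89%). The share was 17.6% in kept domains, 14.6% in all broad OPC domains and 9.76% over the whole OPC list. For OPC peaks of 129O1 the shares were 3.72% of 619 in shrinking domains and 15.5% in kept ones. They were 13.4% in all broad OPC domains and 9.23% over the whole list. The EpiSC5 share in shrinking domains was 1.95% at a ratio limit of 0.5, 7.11% at 0.7 and 6.08% with the rule applied to EpiSC5 alone. OPC SOX6 summits lay in OL H3K27ac of the same line in 65.6% of cases in 129O1 and 47.9% in EpiSC5 in shrinking domains. In kept domains they did so in 91.2% and 85.7%. OL H3K27ac length chose both groups, so this difference is a description and not a further result. Whether the absence of OL SOX6 goes with the shorter acetylation or with the shorter OL SOX6 list was not tested.

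Within shrinking domains SOX6 in OPC was densest where acetylation remained. Both OPC lists covered 1719 kb of them together, of which both OL lists held 473.4 kb (27.5%) and neither OL list held 861.3 kb (50.1%). In the held stretches there were 5.49 SOX6 summits per 100 kb in OL and 54.3 and 46.5 in OPC of 129O1 and EpiSC5. In the stretches lacking in OL there were 0.232 in OL and 19.9 and 15.7 in OPC. Kept domains had the same order, with 39.1 and 28.3 OPC summits per 100 kb in held stretches and 17.2 and 10.9 in lost ones. Their OL summits were 11.1 per 100 kb in held stretches and 1.72 in lost ones, both above those of shrinking domains. Of 470 OPC summits of EpiSC5 in the shared OPC stretches, 135 (28.7%) lay where both OL lists lacked H3K27ac. This share was 18.8% with SOX6 lists of equal number. A share of 45.0% was found with the rule applied to EpiSC5 alone. That share used the OPC stretches of EpiSC5 alone and those its OL list lacked, a looser count.

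**Figure D5:**
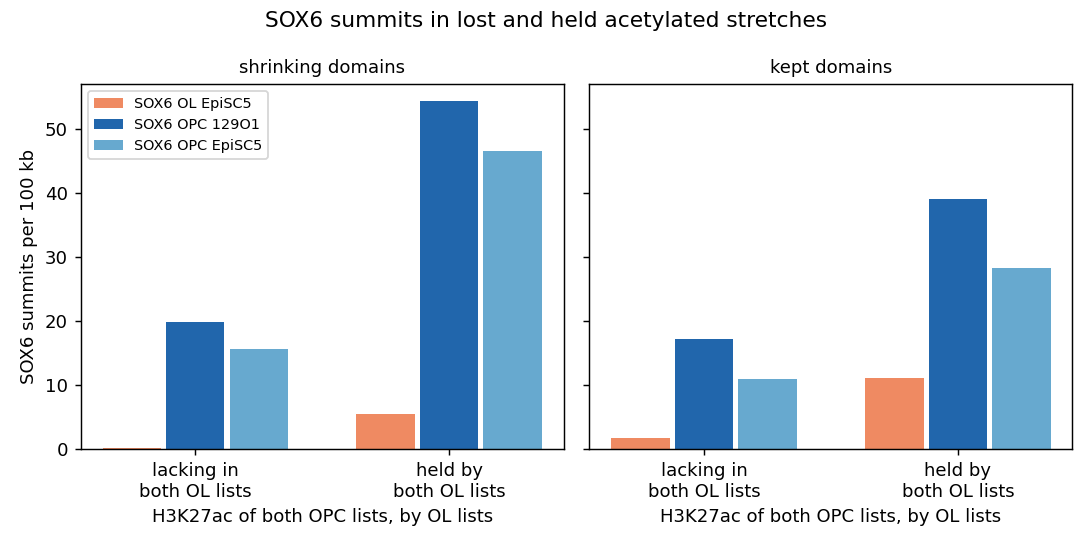
Bars give SOX6 summits per 100 kb of sequence that both OPC H3K27ac lists cover, split by whether both OL H3K27ac lists lack or hold it (x axis), in shrinking (left) and kept domains (right). In shrinking domains OPC summits are 19.9 and 15.7 per 100 kb where OL lacks H3K27ac and 54.3 and 46.5 where OL holds it.

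Single loci show both patterns. The pair of Pdgfra domains had no SOX6 peak in OL and 3 and 2, and 3 and 3, in OPC of 129O1 and EpiSC5. Ptn had none in OL and 11 and 6 in OPC. The longest domain, of Vezf1 and Cuedc1, had 1 in OL and 11 and 10 in OPC, and the histone cluster had 3 in OL and 12 and 11 in OPC. Spred1, whose promoter is printed above, was one of 3 domains with more than 1 OL peak, with 2 in OL and 1 in each OPC list. Myt1 had none in OL and 6 in each OPC list, Btg2 none in OL and 6 and 5 in OPC, and Nmnat2 1 in OL and 6 and 7 in OPC. The OPC SOX6 peaks with the highest authors' score in shrinking domains in 129O1 lay in Plxna2, Sipa1l1 and Nmnat2, at −log10 q of 249.8, 241.0 and 232.0 in OPC of 129O1 and 209.4, 257.6 and 242.3 in OPC of EpiSC5.

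The shrinking domains held 35 OL SOX6 peaks. Their summits lay in OL H3K27ac of EpiSC5 in 27 cases (77.1%), against 75.8% in other broad domains and 95.5% in kept ones, so the share was near that of other broad domains. An OPC SOX6 peak of EpiSC5 overlapped 20 of them (57.1%), against 42.3% in other broad domains. Among their domains were those over Etv5, Trim27, Tdrd7, Thumpd3 with Setd5, a group of Zfp319, Usb1 and Mmp15, and a group of Nicn1, Amt, Tcta and Rhoa. The authors' median −log10 q of these peaks was 13.8, against 10.6 for the whole OL list. OPC SOX6 peaks in shrinking domains had medians of 27.4 and 25.4 in 129O1 and EpiSC5, against 19.2 and 20.0 for the whole lists. In all broad OPC domains the medians were 22.5 and 23.1, also above the whole lists.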

How the data were processed

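ChIP-seq peak lists of 7 libraries were used, and the 2 input samples, whose labels name both ESCs and OPCs, were left out. The submitters' processing notes name Bowtie2 2.3.2, Trim Galore 0.3.1, bedtools, Picard and deepTools and the build mm10. Sources used here do not give the peak caller or its control. The lists have no header. The deposited columns were taken as position, score, fold enrichment (a ratio), −log10 p-value and −log10 q-value, with a summit in the SOX6 lists. The deposited scores and fold, and the authors' −log10 q, served to describe, rank or shorten a list and nothing else. No counts are given, so depth is unknown, and a longer list may come from a deeper library. Peaks were listed per library.

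Intervals were joined, intersected and counted with Python 3.11.15 and pandas 2.3.3, checked on simulated intervals, with overlap of at least 1 bp and 1-based coordinates. The ratio was taken within each line, because OL and OPC of a line share that line and its replicate number. Gene bodies, starts and sequences came from RefSeq tables of GRCm38.p6. Domains were named by fixed rules (the 12 longest, the 12 lowest ratios, OPC and MAPK genes, most SOX6 in OPC, SOX6 in OL, those beside the limit and genes always given). Some genes these rules take are not reported here. The domains and gene lists were chosen with earlier results of these data known. No p-value was computed.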

Additional observations from a re-analysis of the deposited data

How the results depend on the processing

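The number of shrinking domains was within 1.5 times 272 under 7 of 12 alternatives. Of these, joining within 5 kb met 147 of the reported 272 (54.0%) and the higher-scoring 50% of H3K27ac peaks met 151 (55.5%). It was 1089 with at least 2 kb in both OPC lists, 48 with at least 8 kb and 170 at a ratio of at most 0.5, and 509 to 593 with a line left out. Without the replicate block, taking 1 ratio of the mean lengths of both lines in place of a ratio per line, 384 domains were counted, 272 of them the reported ones. Genes numbered 170 and 492 with peaks joined within 5 and 25 kb, 956 and 68 with at least 2 and 8 kb, 161 and 513 at ratios of 0.5 and 0.7, 485 with lengths scaled to equal totals, 445 without the replicate block and 599 to 616 with a line left out. The repeat in EpiSC5 was 88.8% with scaled lengths and 89.2% with the higher-scoring 50% of each H3K27ac list. Starts held in no OL list were 9.09% with at least 8 kb, 25.6% at 0.5, 25.3% with the higher-scoring 50%, and 22.4 to 42.1% with a line left out. SOX6 in both OPC lists was found in 69.1% and 95.8% with at least 2 and 8 kb, in 63.2% with the higher-scoring 50% of SOX6 peaks, in 40.1% with equal numbers, and in 77.9 to 91.5% with a line or list left out. SOX6 in OL was found in 16.1% with joining within 25 kb, 7.90% and 18.8% with at least 2 and 8 kb, 7.35% with the higher-scoring 50% of SOX6 peaks, and 11.4 to 13.8% with a line or list left out. OPC SOX6 peaks met by an OL peak were 6.38% with joining within 25 kb, 1.95% and 7.11% at 0.5 and 0.7, 6.31% with scaled lengths, 6.53% without the replicate block and 3.72 to 6.08% with a line or list left out. OPC summits in stretches lacking in OL were 20.8% and 34.2% with joining within 5 and 25 kb, 38.5% and 24.5% with at least 2 and 8 kb, 34.4% and 23.5% at 0.5 and 0.7, 43.1% with the higher-scoring 50% of H3K27ac peaks, 23.0% with that of SOX6 peaks, 18.8% with equal SOX6 numbers and 32.6 to 45.0% with a line left out. With a line left out, peaks were joined, and stretches and starts called held or lacking, by the other line's H3K27ac lists alone. The cause of these shifts was not tested beyond the domains each setting adds or drops. With no reads, depth cannot be set against any absent peak, and 1 OL SOX6 list has no replicate.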

Other observations

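The share of broad OPC domains that shrank ranged from 2 of 44 on chromosome 19 (4.55%) to 20 of 59 on chromosome 12 (33.9%), where Npas3 alone lies over 4, and was 17.3% over all. The OL SOX6 peak with the highest authors' score in a shrinking domain lay at the start of Kmt2a, a histone methyltransferase gene, with a −log10 q of 86.9 and a fold enrichment of 20.95, and overlapped a SOX6 peak in both OPC lists. That domain had 2.57 and 1.42 kb of H3K27ac in OL of 129O1 and EpiSC5 and 6.86 and 6.32 kb in OPC. The values are descriptions of these lists, and Kmt2a was chosen after its values were seen.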
